A study of Mus musculus with 8 samples.

Results

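Smooth muscle and pericyte genes were followed through RNA sequencing of mouse extrahepatic bile duct (BD) and pancreatic duct (PD), in ducts taken from the animal and in organoids grown from them. The set holds 31 of the 31228 genes in the expression table and was given as a list of gene symbols, all of which were found. The 8 libraries were 1 bile duct epithelium, 1 pancreatic duct epithelium, 3 bile duct organoid cultures and 3 pancreatic duct organoid cultures, all from C57BL/6 mice with no engineered allele or test compound named. What the labels call epithelia were ducts dissected out, minced, digested with collagenase IV and put straight into Trizol, with no sorting step named. Organoids are hollow epithelial structures grown in the gel Matrigel. Their medium held Wnt3A, R-Spondin-1, Noggin, EGF, FGF10, nicotinamide and Y27632, and Wnt3A and Y27632 were withdrawn once luminal organoids had formed. The cultures were sequenced after few passages. The age of the animals, their number per library and whether the replicate cultures came from separate animals are not given in the sources used here, so the p-values measure only the spread between these samples.

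Smooth muscle cells contract when calcium and calmodulin activate myosin light chain kinase, which phosphorylates the regulatory light chain of smooth muscle myosin and lets it pull on actin. Most of the genes for this machinery are switched on by serum response factor, which binds a DNA motif called the CArG box, together with its muscle coactivator myocardin. Pericytes are contractile cells wrapped around capillaries. They share part of this programme and also depend on PDGF and Notch signals from endothelium. In the wall of a duct both cell types lie outside the epithelium, in the muscle layer and around blood vessels.

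Both duct epithelia carried the whole set, and the organoids carried little of it. Every one of the 31 genes was at 1 FPKM or more in both epithelia, and 26 genes in the BD and 27 in the PD were at 10 FPKM or more. FPKM counts fragments per kilobase of exon relative to library size, so that levels of different genes can be compared, and all levels below are FPKM scaled between libraries. Summed over the set, the level was 5004 in BD epithelium and 8349 in PD epithelium, which is 1.08% and 1.84% of the summed FPKM of all genes. In the 6 organoids the sum lay between 98.2 and 280.3, or 0.0329% to 0.0875%. The epithelia were sequenced to an implied 12876470 and 15455994 reads and the organoids to between 15405377 and 20828217. Because these are bulk samples, fewer cells of a type and less RNA per cell cannot be told apart.

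**Figure D1:**
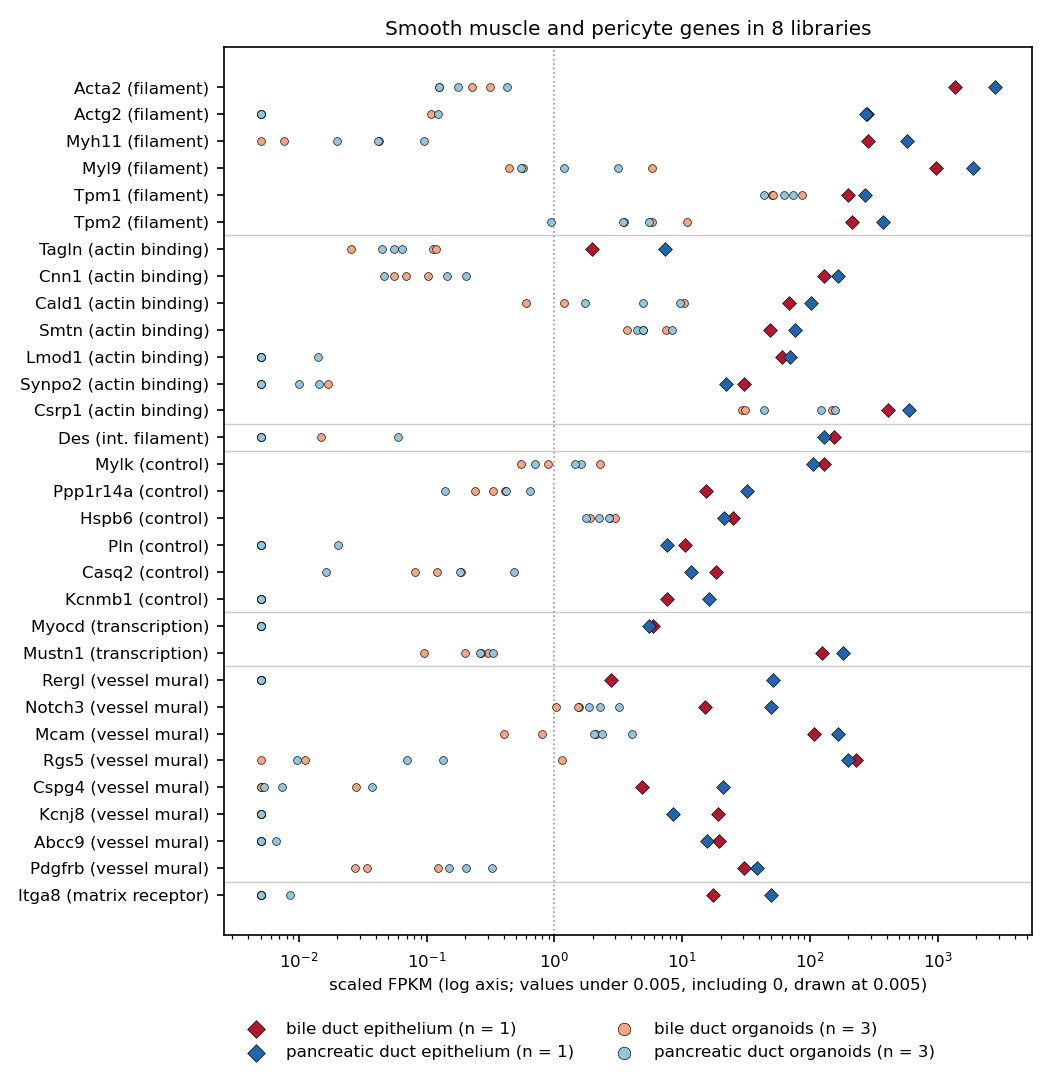
Level of each of the 31 genes in the 8 libraries, in scaled FPKM on a log axis. Diamonds are the single epithelial libraries, circles are single organoid cultures, values below the left end of the scale (including 0) are drawn there, and the dotted line marks 1 FPKM. For every gene both diamonds lie to the right of all 6 circles, and 20 genes stay under 1 FPKM in every organoid.

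The 2 epithelial libraries also held markers of other cell types. The 9 epithelial markers, among them Epcam and Krt19, summed to 2608 FPKM in the BD sample and 563 in the PD sample, and to between 4446 and 11035 in organoids. The 10 fibroblast markers summed to 3454 and 2944 in the BD and PD samples, and to between 19.0 and 47.6 in organoids. The 9 endothelial markers summed to 571 and 951, and to between 1.15 and 1.84 in organoids. Leukocyte markers summed to 393 and 382, and to between 2.25 and 11.6 in organoids. Nerve and glia markers summed to 69.8 and 101, and to between 1.36 and 4.07. The sums for mesothelium (25.6 and 50.2) and interstitial cells of Cajal (30.8 and 20.6) were higher in organoids, at 319 to 793 and 102 to 168. Msln and Ano1 made up most of these organoid sums, and limma called the other markers of both lists lower. The 10 skeletal muscle markers, of which 8 were in the table, summed to 14.9 FPKM in BD and 14.7 in PD epithelium, and to between 6.69 and 14.4 in organoids. The 7 heart markers summed to 52.1 and 13.1 in BD and PD epithelium, and to between 1.16 and 4.18 in organoids. Nppa and Myh7 were at 0 in both epithelia, while Actc1 stood at 26.3 and 8.33 FPKM and Tnnt2 at 23.5 and 1.85 in BD and PD epithelium. The part of tissue makeup in the differences below was not tested.

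Across both organs all 31 genes were lower in organoids than in epithelium. Limma was fitted to log2(FPKM + 1) of all 15033 genes that reached 1 FPKM in at least 2 of the 8 libraries, with organ as a term. Of those genes 30.7% were lower in organoids at an adjusted p under 0.05, and 58.2% changed in either direction. The log2 differences of the 31 genes ran from -10.65 to -1.94 with a median of -4.28, where the median of all genes tested was -0.01. The size depends on the 1 FPKM added before taking logs: with 0.1 FPKM added instead, the median of the set was -6.80 and that of all genes -0.02. Their adjusted p-values from limma ran from 5.81e-08 to 0.0130. All 31 reached 1 FPKM in both epithelia, which is enough to pass the filter on low values. In organoids 20 stayed under 1 FPKM in every culture, and 5 were at 1 FPKM or more in all. The count is therefore a description of the set. The fit rests on 1 library per epithelium. For genes near 0 in organoids, the added 1 FPKM compresses the spread between cultures. Their SEs and p-values, such as those of Acta2 below, therefore do not measure that spread on the FPKM scale. Without further scaling, the median of all genes moved by 0.24 on the log2 scale and 40.0% instead of 52.7% of the changed genes were lower in organoids, and the count of set genes remained 31.

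Within each organ the direction was the same. BD organoids lay at least 2-fold below BD epithelium, in all 3 cultures, for 31 of 31 genes, against 25.9% of 15424 genes in that comparison. PD organoids did so for 31 of 31 genes, against 24.8% of 15190 genes. These comparisons have 1 library on a side and no test. As deposited, without further scaling, 22.8% and 21.8% of genes were lower in the BD and PD comparisons.

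Acta2, smooth muscle alpha actin, was the most abundant gene of the set in both epithelia. It stood at 1372 FPKM in BD epithelium and 2825 in PD epithelium. The BD organoids had 0.125, 0.315 and 0.227 FPKM of Acta2, and the PD organoids 0.177, 0.124 and 0.421. The organoid groups overlapped, and the log2 difference of Acta2 from epithelium was -10.65 (SE 0.23, limma adjusted p = 1.04e-07). Actg2, the gamma actin of visceral muscle, was at 280 FPKM in BD and 275 in PD epithelium. Only the first culture of each organoid group had reads of Actg2, 3 in each, and the other 4 cultures had 0. The actin genes are near-identical in their coding parts, so reads could be split between them in mapping. The cytoplasmic actin Actb was at 727 to 1511 FPKM in those same organoids, in which Acta2 never exceeded 0.421 and Actg2 0.122.

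Myh11, the smooth muscle myosin heavy chain, was at 283 FPKM in BD and 578 in PD epithelium and at no more than 0.0952 in any organoid. Myl9, the regulatory light chain, had levels of 970 and 1881 FPKM in BD and PD epithelium. In BD organoids Myl9 was at 5.79, 0.442 and 0.565 FPKM, and in PD organoids at 0.543, 3.15 and 1.18. One culture of each group was thus well above its 2 companions, and the groups overlapped. Over both organs Myl9 fell by 9.11 on the log2 scale (SE 0.67, limma adjusted p = 3.05e-05).

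The 2 tropomyosins, rod proteins that lie along actin, stood at different levels in organoids. Tpm1 was at 200 FPKM in BD and 268 in PD epithelium. It kept 87.2, 50.3 and 51.3 FPKM in BD organoids and 62.4, 74.3 and 43.6 in PD organoids. Its log2 difference of -1.94 (SE 0.28, limma adjusted p = 0.000973) was the smallest of the set. Tpm2 was at 212 and 371 FPKM in BD and PD epithelium, at 11.0, 5.83 and 3.50 in BD organoids and at 3.43, 5.51 and 0.941 in PD organoids. The Tpm2 difference was -5.75 (SE 0.60, limma adjusted p = 0.000190). Whether the Tpm1 and Tpm2 differences differ from each other was not tested.

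Promoter sequence was read for the members whose start sites are in the RefSeq table for build GRCm38.p6, which holds 29 promoters for 26 of the 31 genes, each from 250 bases before to 50 bases after the start. The CArG box was searched as CC, then 6 bases that are A or T, then GG, a pattern whose reverse complement is itself, so that a match counts for both strands. This strict form was in 2 of 29 promoters of the set (6.90%), those of Myl9 and Rergl, and in 535 of 32851 promoters in all (1.63%). A looser form, with at most 1 G or C inside, was in 4 of 29 (13.8%) against 9.98% of all, adding Acta2 and Hspb6. The 3 sequences below are shown because they belong to the most abundant actin, the most abundant myosin light chain and the gene that differed most between the epithelia, and their matches are in capitals.
Acta2: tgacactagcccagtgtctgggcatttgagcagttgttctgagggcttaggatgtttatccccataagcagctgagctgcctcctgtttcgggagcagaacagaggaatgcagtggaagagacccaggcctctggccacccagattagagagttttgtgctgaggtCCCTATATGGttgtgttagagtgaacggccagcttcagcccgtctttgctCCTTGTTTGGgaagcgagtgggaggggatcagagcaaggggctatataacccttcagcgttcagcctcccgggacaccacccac
Myl9: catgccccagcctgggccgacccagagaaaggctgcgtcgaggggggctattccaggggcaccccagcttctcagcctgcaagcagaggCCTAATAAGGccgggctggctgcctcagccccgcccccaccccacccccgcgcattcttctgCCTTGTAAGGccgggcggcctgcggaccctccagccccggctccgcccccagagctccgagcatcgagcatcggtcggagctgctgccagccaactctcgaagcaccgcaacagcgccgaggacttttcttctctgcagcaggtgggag
Rergl: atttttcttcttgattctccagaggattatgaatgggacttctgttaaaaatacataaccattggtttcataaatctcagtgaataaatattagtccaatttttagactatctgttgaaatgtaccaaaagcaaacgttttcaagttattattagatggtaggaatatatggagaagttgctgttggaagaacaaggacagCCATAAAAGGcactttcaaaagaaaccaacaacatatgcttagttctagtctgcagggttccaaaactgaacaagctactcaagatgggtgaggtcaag
The Acta2 window is chr19:34255324-34255623 on the minus strand, with looser matches CCCTATATGG and CCTTGTTTGG whose first bases lie 84 and 34 bases before the start. The deposited gene position of Acta2 begins at 34255336 on that strand, downstream of this RefSeq start, so both distances depend on the start used. The Myl9 window is chr2:156775214-156775513 on the plus strand, with the strict match CCTAATAAGG 161 bases and the looser CCTTGTAAGG 99 bases before the start. The Rergl window is chr6:139501860-139502159 on the minus strand, with the strict match CCATAAAAGG 49 bases before the start. A match is a string of letters and not evidence of binding, and most promoters of the set held none in this window. The 5 genes without a promoter, Tagln, Actg2, Myocd, Pdgfrb and Myh11, were not searched, so the counts leave out these contractile and mural genes.

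Genes for proteins that bind the actin filament had the same direction. Cnn1, the smooth muscle calponin, was at 130 FPKM in BD epithelium and 166 in PD epithelium, and between 0.0461 and 0.203 in organoids, where it had 2 to 10 reads per culture. Lmod1, leiomodin, which starts new actin filaments, was at 60.3 and 70.0 FPKM in BD and PD epithelium. It had 0 reads in 5 organoids and 1 read in PD culture 2. Against a floor of 3 reads over the 3 BD organoids, Lmod1 was at least 4696-fold lower there than in BD epithelium. Synpo2, which bundles actin in muscle, was at 30.7 and 21.9 FPKM in the epithelia and under 0.0170 in every organoid. Des, the intermediate filament protein desmin, was at 154 FPKM in BD and 130 in PD epithelium, and its organoid reads were 1 in BD culture 1, 4 in PD culture 2 and 0 elsewhere.

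Caldesmon, smoothelin and cysteine-rich protein 1 remained measurable in organoids. Cald1, which holds actin away from myosin, was at 68.7 and 101 FPKM in BD and PD epithelium. BD organoids had 10.3, 0.594 and 1.19 FPKM of Cald1, and PD organoids had 4.91, 9.60 and 1.73. Smtn, a marker of contractile muscle, was at 48.6 and 77.1 FPKM in the epithelia and between 3.70 and 8.27 in organoids. Csrp1 was at 411 FPKM in BD and 595 in PD epithelium. It was at 149, 29.4 and 30.9 FPKM in BD organoids and at 123, 157 and 43.8 in PD organoids, so that 3 cultures, drawn from both organs, were high and 3 were low. The Csrp1 difference from epithelium was -2.81 (SE 0.72, limma adjusted p = 0.0130). It was -3.07 without BD epithelium and -2.54 without PD epithelium, and the call was lost in both of these fits, which keep 1 epithelial library.

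Tagln, transgelin, which is usually among the most abundant proteins of smooth muscle, was listed far below the other filament and actin-binding genes. It stood at 1.97 FPKM in BD epithelium and 7.35 in PD epithelium, from 44 and 194 reads, and had 1 to 5 reads in each organoid. In the GENCODE M21 annotation, 1349 of its 1988 exon bases (67.9%) also lie in exons of genes on the other strand, 1241 in Gm48529 and 108 in Pcsk7. The library kit does not mark strand, so reads from these bases cannot be assigned with certainty and the level of Tagln is uncertain. The part of the overlap in the low value was not tested. Pln shared 64.7% of its exon bases with genes on the other strand, so its level is uncertain too. Smtn shared 16.3% with other genes, the other members shared at most 8.79%, and 21 members shared none.

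Genes that set the force and calcium of contraction were lower in organoids as well. Mylk, the myosin light chain kinase, was at 128 FPKM in BD and 106 in PD epithelium. BD organoids had 2.26, 0.897 and 0.546 FPKM of Mylk and PD organoids 1.6, 1.45 and 0.704, a log2 difference of -5.76 from epithelium (SE 0.30, limma adjusted p = 5.59e-06). Ppp1r14a, an inhibitor of myosin phosphatase also called CPI-17, was at 15.4 and 32.2 FPKM in the epithelia and between 0.139 and 0.649 in organoids. Hspb6, a small heat shock protein of muscle, was at 24.8 and 21.1 FPKM in the epithelia and kept between 1.76 and 2.96 in every organoid. Kcnmb1, the beta subunit of the calcium-activated potassium channel of smooth muscle, was at 7.55 FPKM in BD and 16.1 in PD epithelium and had 0 reads in all 6 organoids. It was therefore at least 625-fold lower in BD organoids and at least 1270-fold lower in PD organoids, against 3 reads over each group of 3. Pln, phospholamban, which restrains the calcium pump of the sarcoplasmic reticulum, and Casq2, which stores calcium there, were at 10.4 and 18.4 FPKM in BD epithelium and at 7.64 and 11.7 in PD epithelium. Pln, whose level is uncertain, had 1 read in all organoids together, and Casq2 was between 0.0161 and 0.484 FPKM in them.

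Myocd, myocardin, was at 5.90 FPKM in BD and 5.54 in PD epithelium and had 0 reads in all 6 organoids, at least 748-fold and 671-fold lower in the respective cultures. Mustn1, a small nuclear protein of muscle and skeleton, was at 125 and 182 FPKM in the epithelia and between 0.0945 and 0.330 in organoids. Serum response factor itself, Srf, did not pass the test: it was at 19.8 and 20.7 FPKM in the epithelia and between 19.2 and 23.9 in organoids, a log2 difference of 0.04 (SE 0.10, limma adjusted p = 0.739). Without further scaling it was 0.31, with limma adjusted p = 0.0389, and with median of ratios scaling its sign turned. Mkl1, a myocardin relative that many cell types use with serum response factor, was at 6.59 and 6.98 FPKM in the epithelia and between 8.15 and 13.9 in organoids, a difference of 0.57 (SE 0.14, limma adjusted p = 0.0117). Its relative Mkl2 fell by 0.73 in organoids (SE 0.11, limma adjusted p = 0.00128).

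Vessel mural genes were present in both epithelia. Rgs5, a regulator of G protein signalling used as a pericyte marker, was at 230 FPKM in BD and 199 in PD epithelium. BD organoid culture 1 had 1.14 FPKM of Rgs5, from 93 reads, while the other 5 organoids had 0 to 11 reads. Mcam, an adhesion molecule of mural and endothelial cells, was at 107 and 167 FPKM in the epithelia. Pdgfrb, the PDGF receptor that pericytes need for recruitment, was at 30.6 and 38.8 FPKM in the epithelia and at 3 to 40 reads per organoid. Kcnj8 and Abcc9, the pore and sulphonylurea receptor of the potassium channel of mural cells, were at 19.0 and 19.5 FPKM in BD epithelium and at 8.54 and 15.7 in PD epithelium. Kcnj8 had 0 reads in all organoids and Abcc9 1. Itga8, an integrin of smooth muscle and mesenchymal cells, was at 17.5 and 50.0 FPKM in the epithelia and had 1 read in the organoids.

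Between the epithelia, 9 of 31 genes were at least 2-fold apart, 8 higher in PD and 1 higher in BD. Of the 15524 genes in that comparison 13.7% were at least 2-fold apart, 4.57% higher in PD and 9.10% higher in BD. With 1 library a side there is no test, and the intervals given here cover counting error only. At any size 20 genes were higher in PD and 11 in BD, and the median log2 difference, BD minus PD, was -0.53, against -0.03 over all genes. Also higher in the PD sample were the endothelial (951 against 571 FPKM), nerve and glia (101 against 69.8) and mesothelium (50.2 against 25.6) marker sums. Lower there were the epithelial (563 against 2608), fibroblast (2944 against 3454), leukocyte (382 against 393) and remaining marker sums given above. Their part in these differences was not tested.

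**Figure D2:**
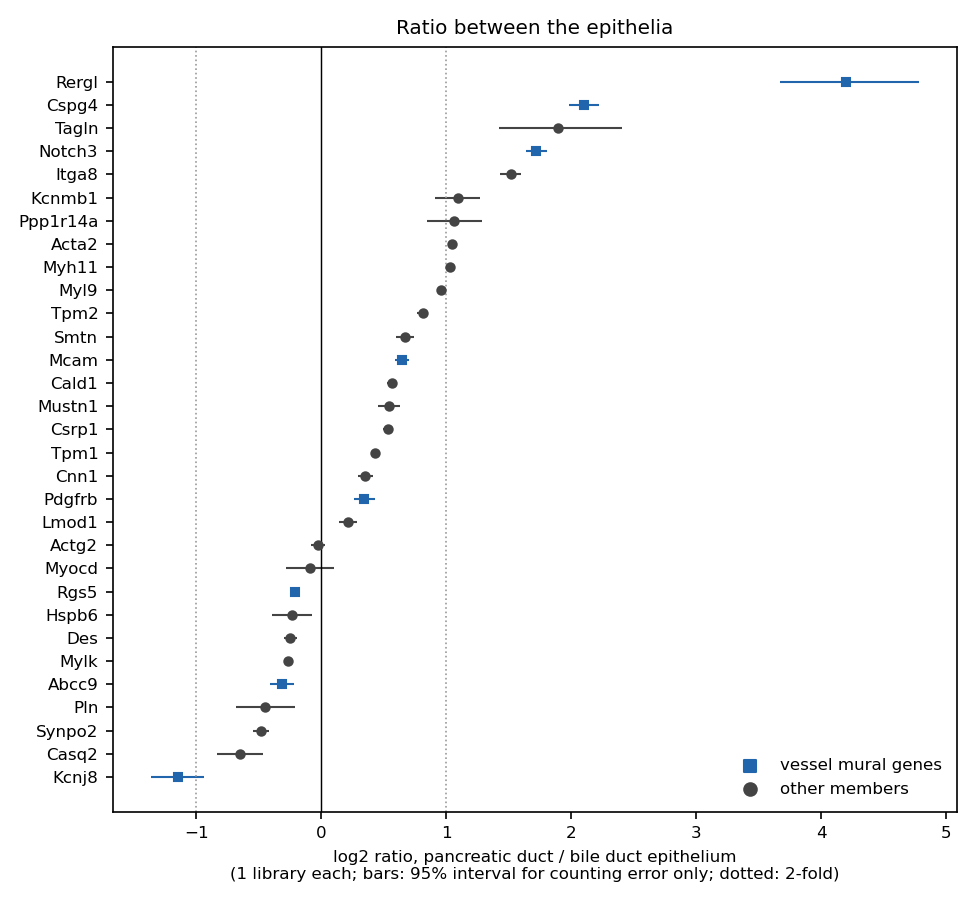
Ratio of PD to BD epithelium for the 31 genes on a log2 axis, ordered by size, with 1 library a side. Bars are 95% intervals for counting error only, squares are vessel mural genes, and dotted lines mark 2-fold in the plain ratio, without the 1 FPKM added for the count. Rergl stands 18.4-fold higher in PD and Kcnj8 lies at the other end, 2.22-fold higher in BD.

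Vessel mural genes lay at both ends of this order. Rergl, a Ras-like gene used as a marker of arterial smooth muscle, was at 2.79 FPKM in BD and 51.3 in PD epithelium, from 30 and 653 reads. The PD level was 18.4-fold higher (95% counting interval 12.7 to 27.5), and all organoids had 0 reads. Cspg4, the proteoglycan NG2, was at 4.84 and 20.7 FPKM, 4.29-fold higher in PD (3.94 to 4.67). Notch3, the Notch receptor of arterial smooth muscle and pericytes, was at 15 and 49.5 FPKM, a log2 difference of -1.66. Kcnj8 went the other way, with 2.22-fold more in BD (1.92 to 2.57). Rgs5, Abcc9, Mcam and Pdgfrb stayed within 2-fold. The 8 vessel mural genes had a median of -0.49.

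Among the contractile genes, ratios ran on both sides of 1. The PD level of Actg2 was 0.983 times that of BD (95% counting interval 0.946 to 1.02) and that of Des 0.842 times (0.813 to 0.871). Smtn was 1.59-fold higher in PD (1.51 to 1.67) and Cnn1 1.28-fold (1.23 to 1.33). The Acta2 level was 2.06-fold and the Myh11 level 2.04-fold higher in PD. Tagln, whose level is uncertain, was 3.72-fold higher (2.67 to 5.29), Itga8 2.86-fold (2.69 to 3.03) and Ppp1r14a 2.09-fold (1.79 to 2.44). The genes just past the 2-fold limit were Ppp1r14a and Myh11, with log2 differences of -1.02 and -1.03, and those just short of it were Kcnmb1 with -0.997 and Myl9 with -0.95. The count uses log2(FPKM + 1), and the plain ratio of Kcnmb1, as plotted, was 2.13-fold (1.88 to 2.41). Ppp1r14a fell out of the count without further scaling.

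In organoids 10 of the 31 genes were tested between the organs, those with at least 1 FPKM in at least 3 of 6 cultures: Myl9, Tpm1, Tpm2, Cald1, Smtn, Csrp1, Mylk, Hspb6, Notch3 and Mcam. None passed the adjusted threshold in limma, and 0 of all 12094 genes tested did. At an unadjusted p under 0.05 there were 2 of the 10 genes and 307 of all genes, which is 2.54%. Groups without overlap were found for 1 of the 10, and for 6.72% of all genes. The unadjusted counts moved with single cultures: without BD organoid 1 they were 3 of 8 set genes tested and 1019 of all genes, without BD organoid 2 they were 0 of 10 and 160, and without BD organoid 3 they were 0 of 10 and 190. Without PD organoid 1 they were 1 of 9 and 323, without PD organoid 2 they were 1 of 8 and 232, and without PD organoid 3 they were 0 of 9 and 428.

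Those 2 genes were Notch3 and Mcam. Notch3 was at 1.02, 1.55 and 1.53 FPKM in BD organoids and at 2.28, 1.86 and 3.19 in PD organoids. All PD cultures were above all BD cultures, as in the epithelia. The Notch3 difference, BD minus PD, was -0.53 on the log2 scale (SE 0.20, limma unadjusted p = 0.0335 and adjusted p = 1.00), and its exact two-sided permutation p of 0.1 is the smallest that 3 against 3 can give. Mcam was at 2.13, 0.404 and 0.798 FPKM in BD organoids and at 2.05, 4.07 and 2.34 in PD organoids, where BD culture 1 overlapped with the other group. Its difference was -0.92 (SE 0.36, limma unadjusted p = 0.0422 and adjusted p = 1.00). The other 8 genes differed by -0.86 to 0.92, with standard errors from 0.19 for Hspb6 to 0.86 for Cald1. Leaving out 1 culture at a time moved the ends of that range, Csrp1 between -1.62 and -0.46, Cald1 between -1.59 and -0.15 and Tpm2 between 0.43 and 1.32.

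**Figure D3:**
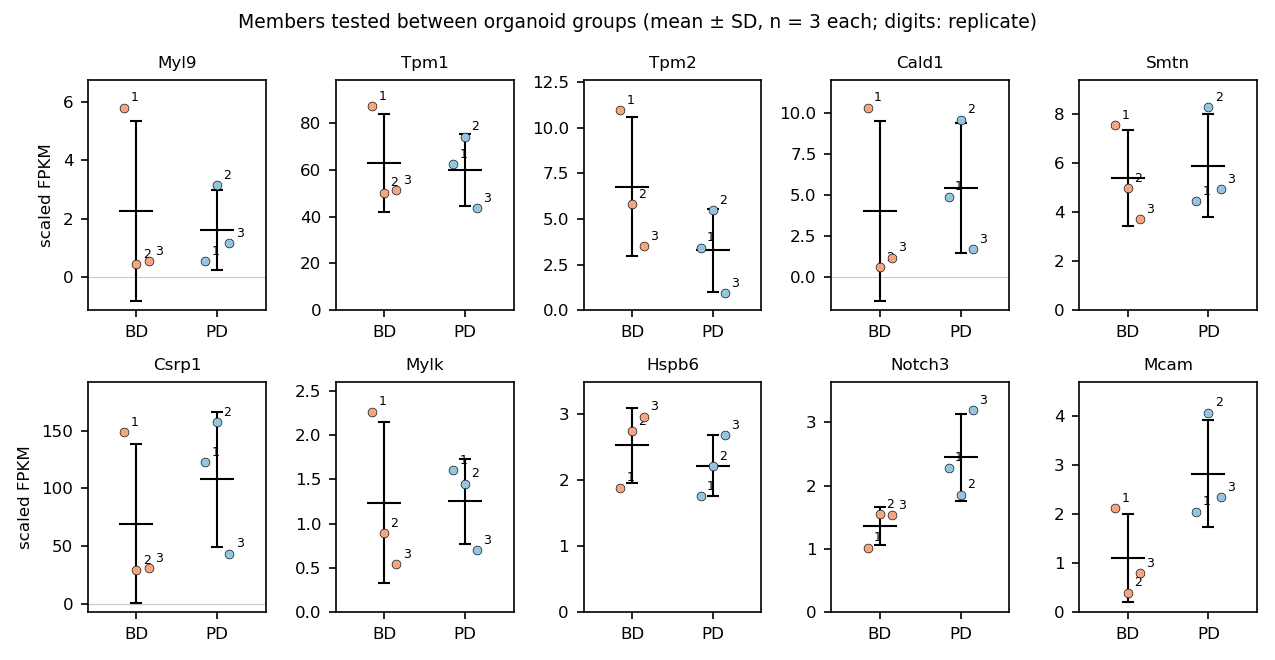
Level of the 10 genes tested between organoid groups, in scaled FPKM on linear axes, with one panel per gene. Points are single cultures numbered by replicate, the wide bar is the mean and the whiskers are the SD (n = 3 per group). For Csrp1 and Cald1, BD culture 1 and PD cultures 1 and 2 lie above the other 3 cultures, and Notch3 alone has groups that do not overlap.

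Much of the spread lay between cultures of one organ. Csrp1 averaged 69.7 ± 68.5 FPKM (SD, n = 3) in BD organoids and 108 ± 58.1 (SD, n = 3) in PD organoids. Cald1 averaged 4.04 ± 5.46 (SD, n = 3) and 5.41 ± 3.96 (SD, n = 3). The high cultures for both genes were BD 1 and PD 1 and 2. Those cultures also differed from the others in genes outside the set. Mki67, a proliferation marker, was at 23.4, 62.4 and 61.2 FPKM in BD cultures 1, 2 and 3 and at 30.3, 18 and 52.2 in PD cultures 1, 2 and 3. Ankrd1, a target of YAP signalling, was at 252, 65.9 and 85.5 FPKM in BD and at 199, 243 and 46.6 in PD cultures. Reads of Y-linked genes numbered 0, 9 and 14 in BD and 0, 0 and 9 in PD cultures, so that the cultures high for Csrp1 and Cald1 were those without such reads. Xist, the RNA of the inactive X chromosome, was at 19.5, 82.8 and 82.7 FPKM in BD and at 23.0, 20.4 and 74.7 in PD cultures, so the cultures with Y-linked reads were also the ones with most Xist. The part of these values in the spread was not tested. With the presence of Y-linked reads as a term, chosen after seeing the data, again 0 genes passed the adjusted threshold in limma, with 623 at an unadjusted p under 0.05. In that fit 3 of the 10 genes were at an unadjusted p under 0.05. Tpm2 differed between organs by 1.36 (limma unadjusted p = 0.00233, adjusted p = 0.911), Notch3 by -0.67 (unadjusted p = 0.00279, adjusted p = 0.911) and Tpm1 by 0.30 (unadjusted p = 0.0407, adjusted p = 0.964). Mcam, at -0.71, no longer was (limma unadjusted p = 0.0606), and Csrp1 was at -0.20.

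Widely expressed relatives of the set moved in both directions. Of 22 such genes, all tested between organoids and epithelium, 5 were higher in organoids, 7 lower and 10 not called by limma, with 7 higher and 6 lower when the deposited values were left unscaled. These shares lie near those of all genes, of which 58.2% were called and 30.7% were lower. Actb was at 742 and 733 FPKM in BD and PD epithelium, and its organoid difference of 0.48 (SE 0.31, limma adjusted p = 0.211) did not pass the test, though it did without further scaling, at 0.76 with limma adjusted p = 0.0481. The nonmuscle myosins Myh9 and Myh14 rose by 1.20 (SE 0.32) and 1.85 (SE 0.44) on the log2 scale. Ppp1r14b, a relative of Ppp1r14a, rose from 31.2 and 23.6 FPKM to between 164 and 227, a difference of 2.81 (SE 0.14, limma adjusted p = 3.53e-06). Tagln2 rose by 0.68 (SE 0.21) and Notch2 by 0.34 (SE 0.09). Vim, the mesenchymal filament vimentin, fell by 7.34 (SE 1.06). Hspb1, a small heat shock protein related to Hspb6, fell by 3.63 (SE 0.58). The light chain Myl6 fell by 2.27 (SE 0.21), and the calponin Cnn3 fell by 1.83 (SE 0.49). Csrp2 fell by 1.63 (SE 0.47) and Notch1 fell by 1.42 (SE 0.20). Tmod3, which caps actin filaments, fell by 0.25 (SE 0.08), and without further scaling its sign turned, at 0.012.

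**Figure D4:**
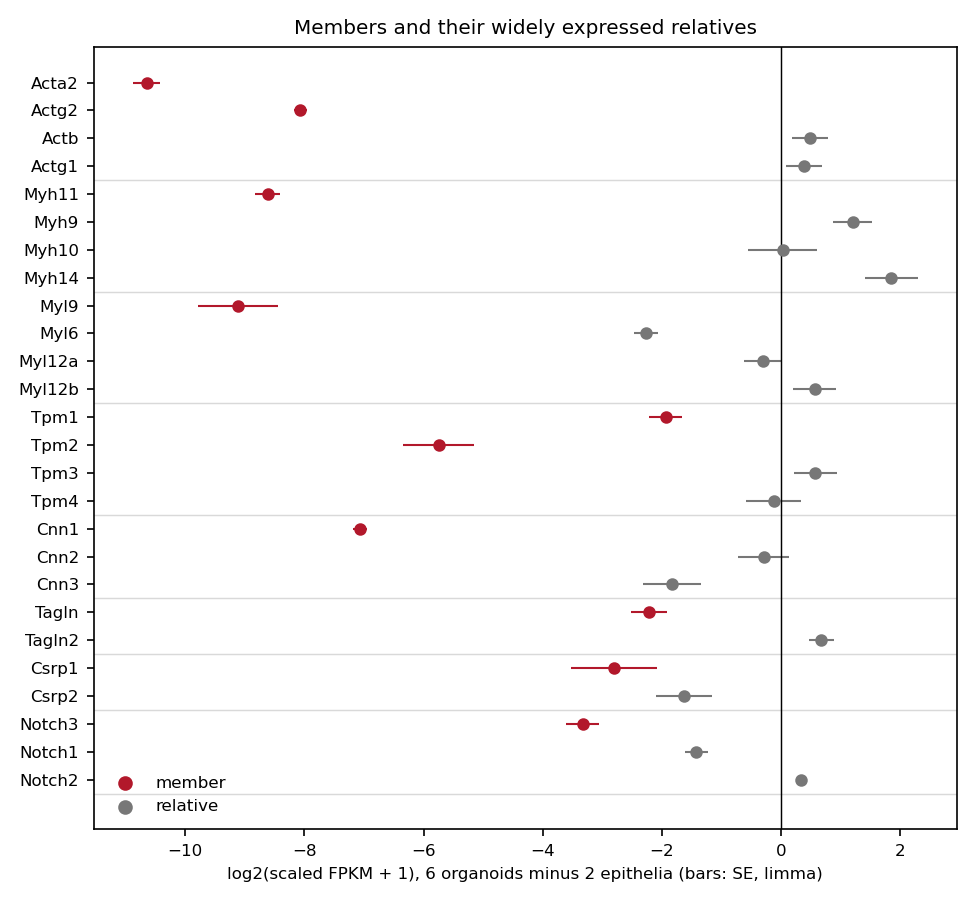
Log2 difference between 6 organoids and 2 epithelia for members of the set and for relatives from the same gene families, from limma with SE bars. Members lie between -10.65 (Acta2) and -1.94 (Tpm1), while relatives such as Actb, Myh9 and Myh14 lie at or to the right of 0 and Myl6, Cnn3, Csrp2 and Notch1 to the left.

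Other genes of the same cell types were read from lists that do not hold the members. Of 33 other smooth muscle genes tested, 27 were lower in organoids, 2 higher and 4 not called by limma, against 30.7% lower over all genes, with a median of -2.55. Of the 35 in the table, 33 to 34 were at 1 FPKM or more in an epithelium and 11 to 12 in an organoid, so most passed the filter through the epithelia and the count is a description. Fhl1, a LIM protein of muscle, was at 173 and 201 FPKM in the epithelia and at most 0.442 in organoids, and Cav1, the caveolin of muscle and endothelium, was at 223 and 432 FPKM and between 29.4 and 76.3 in organoids. The genes higher in organoids were Mkl1 and Npnt, a matrix ligand of integrin alpha 8, by 1.13 (SE 0.16, limma adjusted p = 0.000958). Npnt thus moved opposite to its receptor gene Itga8. Of 23 other pericyte and mural genes tested, 19 were lower in organoids, none higher and 4 not called, with a median of -3.14 and the same share over all genes. Here 23 of 25 were at 1 FPKM or more in each epithelium and 4 to 6 in an organoid, so this count too is a description. Of the same lists, 5 of 34 and 11 of 23 genes were at least 2-fold higher in PD than in BD epithelium, and 0 and 1 were higher in BD, the latter Cox7a1, against 4.57% and 9.10% of all genes. P2rx1, the ATP receptor of arterial smooth muscle, was at 9.85 FPKM in BD and 144 in PD epithelium, Gja4, a connexin of arterial cells, at 16.7 and 111, and Rgs4 at 14.5 and 93.7. Heyl, a transcription factor downstream of Notch3, was at 7.36 and 22.2 FPKM.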

How the data were processed

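RNA from the 8 samples was selected for poly(A) and made into libraries using the NEBNext Ultra kit, which does not mark strand, per the labels' protocols. Bowtie2 2.2.3, HISAT2 2.1.0, TopHat2 and HTSeq 0.6.0 are named in the submitters' processing notes, without their order or settings. The authors deposited 1 table of FPKM values with GRCm38 gene positions, and the unit was read from the values. All 8 per-sample columns were used.

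FPKM times GENCODE M21 exon length, divided by a library's step, gave whole reads (tolerance 0.05) for 28268 of 31228 genes (90.5%) and for 25 of the 31 members. Reads are quoted only for those 25, and for the others the intervals are approximate. Intervals are exact conditional binomial 95% intervals. They and the floor of 3 reads cover counting error only, since the reads carry no molecular identifiers.

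FPKM values were divided by factors from a trimmed mean of log ratios (30% and 5% trims, genes at 1 FPKM or more in a library), over 8 libraries or, for the organoid test, over 6. log2(scaled FPKM + 1) was tested with limma 3.58.1 (R 4.3.3, intensity trend, Benjamini-Hochberg, threshold 0.05). On this scale the fall of weakly expressed genes is understated. Where a side had a single library, genes were counted at 2-fold, for organoids with all 3 cultures on one side. The fits were tested on simulated data. Samples were grouped by their labels. All 31 members may be named, and of the other lists the 4 most abundant genes and those past the threshold of a test. Srf, Cox7a1, Mki67, Ankrd1, Xist and the cell type markers named were singled out after their values were seen. Members and lists were chosen with earlier results of these data known. Of the 39 other smooth muscle symbols 35 were in the table. The remaining 4 are newer symbols of genes present under older ones. Alternatives covered scaling, pseudocount, filter, trend, organ term, replicate block and leaving out each library.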

Additional observations from a re-analysis of the deposited data

How the results depend on the processing

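Counts of called members stayed within 1.5 times the reported ones in all 50 recomputations. All 31 remained lower in organoids except with a filter at 10 FPKM, where 24 were tested over both organs, 26 in BD and 27 in PD and all were lower, and without either epithelium, where Csrp1 lost its call and 30 remained. Between epithelia the count ranged from 8 to 10. Over all genes, the filter at 10 FPKM changed the counts from 8754 to 4553 (organoid against epithelium), from 2123 to 908 (between epithelia), from 5994 to 2893 (BD) and from 6149 to 3115 (PD), since fewer genes were tested. Leaving out PD organoid 3 raised the genes called between organoid groups from 0 to 11, of which 0 were members, and the cause was not tested.

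Between organoid groups, some small differences changed sign. With a pseudocount of 0.1 FPKM the Myl9 difference was -0.10. With a term for Y-linked reads Mylk was 0.20 and Smtn 0.060. Leaving out one organoid at a time gave ranges of -0.28 to 0.45 for Myl9, -0.20 to 0.23 for Tpm1, -0.25 to 0.18 for Mylk and -0.34 to 0.14 for Smtn. None of these was called in any setting, and the cause was not tested. With the replicate number as a block, 0 genes and 0 members were called, with 288 genes at an unadjusted p under 0.05. Whether the numbers pair the cultures is not stated. Deviations of same-numbered cultures correlated at -0.11, -0.44 and 0.48, and those of differently numbered ones at -0.60 to 0.65. With 3 cultures a group these values cannot decide it. Depth limits the 4 members at 0 reads in all organoids and the 8 with whole reads recovered that had 1 to 20 in all organoids together, for which organoid levels are upper limits or rest on few reads.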

Other observations

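Of the genes for secreted or cell-surface ligands in the pericyte and mural list, Pdgfd, another ligand of the PDGF receptor, fell by 2.64 in organoids on the log2 scale (SE 0.25, limma adjusted p = 0.000123). Angpt1, the ligand of the endothelial receptor Tek, fell by 2.21 (SE 0.30, limma adjusted p = 0.000748). Pdgfb and Jag1 were not called. Pdgfb, the ligand of the receptor encoded by Pdgfrb, was at 14.1 FPKM in BD and 21.7 in PD epithelium. It was at 38.6, 3.68 and 3.61 FPKM in BD organoids 1, 2 and 3 and at 15.2, 37.2 and 5.14 in PD organoids 1, 2 and 3, so the cultures high for Csrp1 and Cald1 were also the high ones for Pdgfb. Jag1, a Notch ligand, was at 14.6 and 40.4 FPKM in the epithelia and between 11.4 and 28.0 in organoids. Limma's adjusted p between organoids and epithelium was 0.618 for Pdgfb and 0.421 for Jag1. Vim was at 27.8 FPKM in PD organoid 2 and between 0.374 and 2.35 in the other 5 organoids.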
